A study of Mus musculus with 10 samples.

Results

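Newborn rib cartilage was sorted by reporter fluorescence into Col2+ cells, which carry a cyan reporter of the main cartilage collagen gene Col2a1, and Col10+ cells, which carry a red reporter of Col10a1, the collagen gene of hypertrophic chondrocytes. The comparison described here is the Col10+ sort against the Col2+ sort. Its members are the genes with a row of their own in the deposited chondrocyte table and at least 5 FPKM in either sort, and there were 8014 of them among 22064 distinct single-gene names. FPKM is a count of sequenced fragments scaled by transcript length and by the size of the library. Col2+ cells came from Col2a1-ECFP tg mice and Col10+ cells from Col10a1-mCherry tg mice, both of the ICR strain at postnatal day 1, with 3 libraries per sort. Ribs were treated with pronase at 2 mg/mL for 30 min and then with 0.2% collagenase D for 3 h, both at 37 °C, and libraries were made with a TruSeq kit from 100 ng of total RNA. The series also holds 4 libraries of calvarial osteoblasts from C57BL/6 embryos at E17.5, 2 of genotype Runx2_cHet_KO and 2 of genotype Runx2_cHom_KO, made from 1.7 ng of RNA with a SMARTer Pico kit, and these are used only for a look at levels. Because each reporter came from its own mouse line, a difference between the sorts and a difference between the lines cannot be told apart.

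In a growth plate, resting and columnar chondrocytes lay down a matrix of collagens II, IX and XI with aggrecan, then stop dividing, enlarge and switch to collagen X. The enlarged hypertrophic cells mineralise their matrix, release proteases that open it to blood vessels and osteoclasts, and are replaced by bone and marrow. Indian hedgehog from cells at the start of this change, parathyroid hormone-related protein from the end of the bone, FGF, BMP and Wnt signals set its pace, and the transcription factors Sox9 and Runx2 act on opposite sides of it.

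The table gives 1 FPKM value per gene and sort, so no difference below has a replicate spread, an error or a p-value, and depth is unknown. Values are given as pairs with the Col2+ value first. Differences are log2(FPKM + 1) of the Col10+ sort minus that of the Col2+ sort, a scale that understates the difference of low genes. A gene is called higher or lower where this difference is at least 1 in size, that is 2-fold. In such bulk samples fewer cells of a type and less RNA per cell cannot be told apart.

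A few rows stood apart by level, and they bear on the scale of all others. Tomm70a, which encodes a receptor for mitochondrial protein import, was listed at 9074 and 180010 FPKM and so held 1.60% and 25.3% of the summed FPKM. Rn45s, the ribosomal RNA precursor and a sign of how much ribosomal RNA was sequenced, was at 614 and 24995 FPKM, and Lars2, a mitochondrial tRNA synthetase gene, at 430 and 8819 FPKM. These 3 rows, with Rn45s chosen after its values were seen, made up 1.78% of the Col2+ and 30.0% of the Col10+ sum. Whether the reads in the Tomm70a and Lars2 rows came from the mRNAs of these genes or from ribosomal or mitochondrial RNA was not tested. The 2 values are therefore not read as levels of these mRNAs. The ratio of Col10+ to Col2+ had a median of 0.787 over the members, a shift of -0.34 on the log2 scale, and the second scale used below, called centred, divides this ratio out. With sums made equal without these 3 rows, the median difference went from -0.30 to 0.0835. How far the rows account for the shift was not tested beyond that.

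Markers of other cell types also separated the sorts, and they stand beside every result below. The 13 neutrophil markers summed to 1.31 and 4172 FPKM, the 14 macrophage markers to 3.73 and 2053 FPKM and the 7 red-cell markers to 1.74 and 722 FPKM. Endothelial markers, 13 genes, summed to 14.7 and 151 FPKM, and 10 osteoclast markers to 72.4 and 419 FPKM. Of these 5 lists every neutrophil, macrophage and red-cell gene had the higher value in the Col10+ sort, as did 12 of the 13 endothelial and 9 of the 10 osteoclast genes. The exceptions were Erg, at 12.5 and 9.92 FPKM, and Nfatc1, at 49.8 and 43.6 FPKM. They made up most of the Col2+ sums of their lists, so these 2 sums understate how far the other genes differed. The part that RNA of these cells plays in a gene's difference was not tested.

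Of the 8014 genes, 1110 were higher in the Col10+ sort (13.9%) and 1132 were lower (14.1%). With centred columns 1406 were higher (17.54%) and 581 lower (7.25%), so 70.8% of the called genes were higher in place of 49.5%. The counts given below for gene lists stand beside these shares, and those of several lists lie near them. All 1110 higher genes kept that call when centred, and 581 of the 1132 lower genes did. Dividing out a median ratio under 1 raises every difference, so no higher gene could lose its call and no lower gene could be added. The differences were of unequal size in the 2 directions. At 4-fold or more there were 634 higher and 169 lower genes, at 16-fold 177 and 14, and at 64-fold 40 and 3. Many higher genes were near absent from the Col2+ sort: 483 of them (43.5%) lay under 1 FPKM there and 119 were listed at 0. Only 15 lower genes (1.33%) lay under 1 FPKM in the Col10+ sort, and the 9 listed at 0 there were all rows of microRNAs or small nucleolar RNAs, named by kind after their values were seen.

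**Figure D1:**
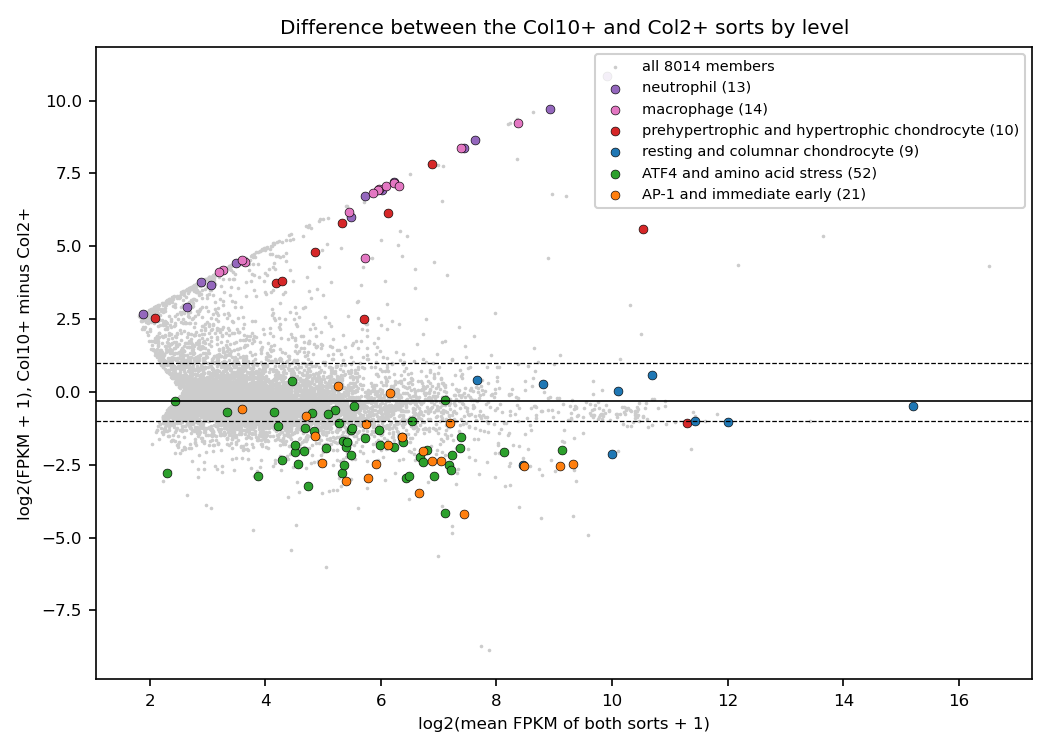
Each point is a gene with 5 FPKM or more in either sort, placed by its mean level (x axis, log2 of mean FPKM + 1) and by its difference (y axis, log2(FPKM + 1) of Col10+ minus Col2+, 1 value per sort). Dashed lines mark the 2-fold limit and the solid line the median of -0.30; the neutrophil and macrophage markers lie along the upper edge, where the Col2+ value is close to 0, and the ATF4 and immediate early genes lie below the median line with few exceptions.

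The shares of higher and lower genes varied with level. Among 3111 genes with a mean under 10 FPKM, 22.2% were higher and 8.78% lower, whereas among 347 genes with a mean from 100 to 300 FPKM 7.78% were higher and 28.5% lower. The 189 genes with a mean of 300 FPKM or more were higher in 11.1% and lower in 22.2% of cases, so the shares did not move steadily with level. Genes with a mean under 5 FPKM passed the minimum through 1 sort only. The 5 FPKM minimum passed Mov10, at 5.0 and 4.78 FPKM, and left out Tnfrsf14, at 0.358 and 4.997 FPKM. At the 2-fold limit Tradd (1.0016) was just counted as higher and Tyk2 (0.9978) was not, and Syde1 (-1.0005) was just counted as lower while the cartilage collagen gene Col9a1, at 3702 and 1851 FPKM (-0.9999), was not.

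The gene of the red reporter separated the sorts and the gene of the cyan reporter did not. Col10a1 was at 59.5 and 2895 FPKM, a difference of 5.58, or 48.7-fold. Col2a1 was at 44205 and 31532 FPKM, a difference of -0.49, or -0.14 centred, so it was the most abundant chondrocyte marker in both sorts and stayed within 2-fold. Among 10 markers of prehypertrophic and hypertrophic chondrocytes, 9 were higher in the Col10+ sort and 1, Spp1, was lower, with a median of 4.30 against -0.30 over all members. The 10 genes had medians of 1.27 and 83.0 FPKM. Most of them lay under 5 FPKM in the Col2+ sort and could pass the minimum only by a higher Col10+ value. Col10a1, the gene of the red reporter, is itself on this list. Panx3, a channel protein of the prehypertrophic zone, was at 1.03 and 55.2 FPKM. Of 11 markers of resting and columnar chondrocytes, 9 reached 5 FPKM, 0 of these were higher and 3 were lower, with a median of -0.49.

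Collagen genes differed by type. Of 41 collagen chains with a row, 28 reached 5 FPKM, and 10 of these were higher and 4 lower, or 2 lower when centred. The median was 0.08, or 0.40 centred. Col1a1, a chain of the main bone collagen, was at 10.6 and 3305 FPKM, and its partner Col1a2 at 282 and 2259 FPKM, so the 2 chains of this collagen stood in very different proportion in the 2 sorts. The basement membrane chains Col4a1, at 4.01 and 97.5 FPKM, and Col4a2, at 15.6 and 64 FPKM, were higher, in the sort in which the endothelial markers were higher too. Col22a1, a fibril-associated chain of tissue junctions, was at 0.386 and 24.0 FPKM, and Col5a2, which co-assembles with collagen I, at 25.4 and 131 FPKM. On the other side Col16a1, a fibril-associated chain, was at 590 and 151 FPKM, the hemidesmosome collagen Col17a1 at 7.88 and 1.39 FPKM, and the cartilage chain Col9a2 at 5546 and 2711 FPKM, the last within 2-fold when centred. The beaded filament chains Col6a1, Col6a2 and Col6a3 stayed within 2-fold, with Col6a1 at 1137 and 600 FPKM.

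The small leucine-rich proteoglycans, which bind collagen fibrils and growth factors, included lower genes and no higher one as deposited. Of 15 with a row, 11 reached 5 FPKM, 0 were higher and 7 were lower, with a median of -1.12. Ecm2 was at 67.9 and 5.61 FPKM and fibromodulin (Fmod) at 1770 and 435 FPKM. Biglycan (Bgn), at 2279 and 1045 FPKM, decorin (Dcn), at 382 and 158 FPKM, and lumican (Lum), at 277 and 117 FPKM, were lower by 2.18-fold, 2.42-fold and 2.36-fold. With centred columns 2 of the 7 remained lower, the median was -0.78, and 1 gene was higher, Tsku at 2.54 and 5.81 FPKM. Asporin (Aspn) was at 22.3 and 23.6 FPKM.

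The rest of the cartilage matrix split by role. Of 5 aggregate-forming genes 2 were higher, 0 lower and 3 within 2-fold. The 3 were aggrecan (Acan) at 1089 and 1104 FPKM, its link protein Hapln1 at 404 and 485 FPKM and perlecan (Hspg2) at 166 and 184 FPKM. The higher genes were versican (Vcan), the large proteoglycan of softer tissue, at 0.554 and 14.5 FPKM, and the hyaluronan receptor Cd44, which blood cells also carry, at 15.1 and 55.3 FPKM. Among 14 adaptor proteins at 5 FPKM or more, 5 were higher and 1 lower: Matn1, a matrilin that links matrix fibrils, was at 22 and 122 FPKM, Thbs2 at 3.43 and 19.2 FPKM, and Cilp2, the lower gene, at 68.3 and 12.2 FPKM. Among 11 other secreted and membrane proteins 8 were lower and 0 higher, or 4 lower when centred. Cytl1 was at 836 and 40.6 FPKM, Ucma, a Gla protein of the resting and upper growth cartilage, at 1673 and 377 FPKM, and Mgp, the Gla protein that restrains mineral in cartilage, at 4216 and 1090 FPKM. Over all 30 such genes 7 were higher and 9 lower, a majority that turned to 7 against 5 when centred.

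**Figure D2:**
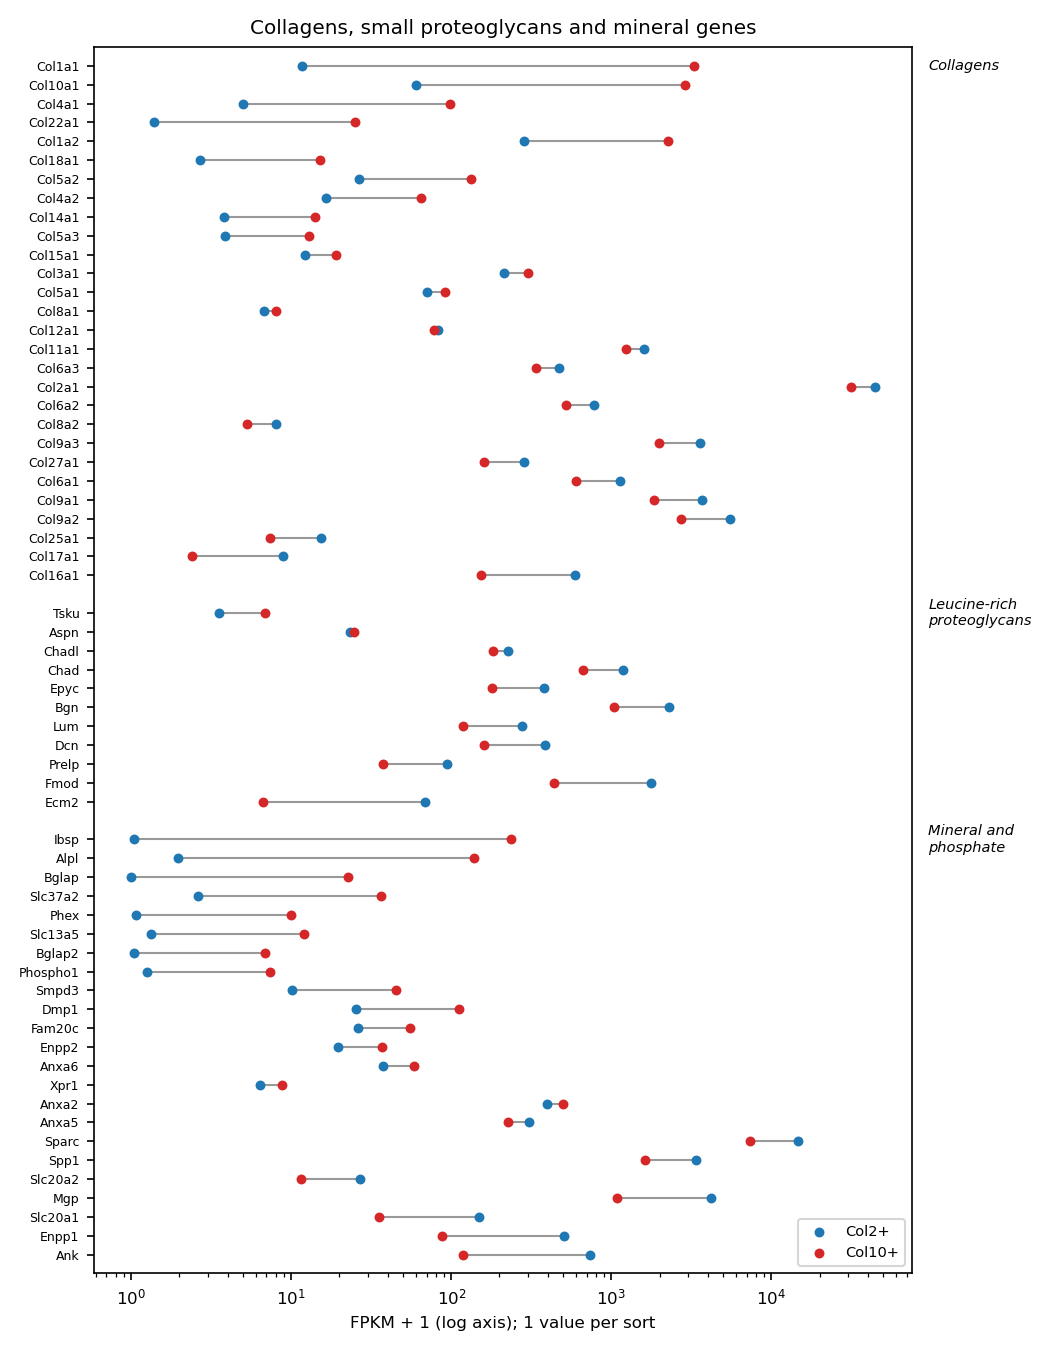
FPKM + 1 on a log axis for every collagen chain, small leucine-rich proteoglycan and mineral gene with 5 FPKM or more in either sort, with blue points for Col2+ and red points for Col10+ (1 value per sort, so no error bars), ordered by difference within each group. The collagens and mineral genes span both directions, from Col1a1 and Ibsp at the top of their groups to Col16a1 and Ank at the bottom, whereas most proteoglycans have the Col2+ point to the right.

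Collagen crosslinking enzymes were mostly higher, whereas the enzymes of hydroxylation and folding were mostly within 2-fold. Of 7 crosslinking enzymes 5 were higher and 0 lower. Lysyl oxidase (Lox) was at 4.86 and 57.4 FPKM, Loxl4 at 31.5 and 185 FPKM and Loxl2 at 41.1 and 94.6 FPKM, and the transglutaminases Tgm2, at 20.6 and 106 FPKM, and F13a1, at 13 and 42.7 FPKM, were also higher. F13a1 is also a gene of macrophages and platelets. Among 15 genes of hydroxylation and folding in the endoplasmic reticulum 0 were higher and 1 was lower, the telopeptide lysyl hydroxylase Plod2, at 199 and 85.0 FPKM and within 2-fold when centred. The collagen chaperone Serpinh1 was at 1047 and 602 FPKM and P4hb, the shared subunit of the prolyl hydroxylases, at 564 and 491 FPKM. The propeptidase Adamts2 was at 0.50 and 8.99 FPKM and Pcolce, an enhancer of propeptide removal, at 25.7 and 96.2 FPKM, while the proteases Tll1, at 11.3 and 0.972 FPKM, and Adamts3, at 28.0 and 8.24 FPKM, were lower.

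Genes of glycosaminoglycan chains were mostly within 2-fold. Of 48 with a row, 40 reached 5 FPKM, and 2 of these were higher and 9 lower, or 3 and 5 when centred, with a median of -0.64, or -0.31 centred. Has1, a hyaluronan synthase, was at 61.7 and 4.97 FPKM. Chst3, which puts the 6-sulfate on chondroitin, was at 14 and 1.55 FPKM, and Chst15, which adds a further sulfate, at 1.72 and 6.52 FPKM. Ugdh, which makes the UDP-glucuronate that the chains are built from, was at 314 and 125 FPKM, and Xylt1, which starts the chains on the core protein, at 141 and 62.8 FPKM, both lower as deposited and within 2-fold when centred.

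Genes of mineral and phosphate handling separated widely in both directions. Of 29 with a row, 23 reached 5 FPKM, and 11 were higher and 7 lower, or 12 and 4 when centred, with a median of 0.91. Most of the 11 higher genes passed the minimum only through the Col10+ sort, which fixes their direction. Ibsp, which nucleates mineral, was at 0.0467 and 235 FPKM. The phosphatase gene Alpl, whose product removes pyrophosphate, was at 0.971 and 137 FPKM, Phospho1, the phosphatase of matrix vesicles, at 0.261 and 6.33 FPKM, and Dmp1, an acidic matrix protein of mineralising tissue, at 24.4 and 111 FPKM. Phex, a peptidase of phosphate balance, was at 0.0658 and 9.02 FPKM, and Slc13a5, a citrate transporter, at 0.328 and 11.1 FPKM. Ank, which exports pyrophosphate, was at 732 and 117 FPKM. Osteopontin (Spp1), at 3400 and 1614 FPKM, and the collagen-binding glycoprotein Sparc, at 14611 and 7299 FPKM, were lower as deposited by just over 2-fold and were within 2-fold when centred. Bglap, which encodes osteocalcin, was listed at 0 and at 21.7 FPKM, and its reads can be shared with the near-identical Bglap2.

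The marker genes of osteoblasts and osteocytes, the cells of bone, were higher beside these. Of 13 genes 11 reached 5 FPKM, 9 were higher and 0 lower, with a median of 2.71, and the list summed to 438 and 5890 FPKM. Col1a1 and Col1a2, named above, made up most of the Col10+ sum. Of the 9 higher genes, Bglap, Bglap2, Ifitm5, Phex and Sp7 passed the minimum only through the Col10+ sort, which fixes their direction. Of the 13 genes 12 had the higher value in Col10+, and Cthrc1, at 66.7 and 47.8 FPKM, did not. Hypertrophic chondrocytes also use several of them, so the list does not separate the cell types. The fibroblast, tendon and periosteum markers, 13 genes, summed to 267 and 576 FPKM, and 10 of them had the higher value in Col10+. The exceptions were Pdgfra, at 19.3 and 10.9 FPKM, Scx, at 2.77 and 1.89 FPKM, and Ly6a, at 4.95 and 4.91 FPKM. Col3a1, within 2-fold at 212 and 300 FPKM, made up most of both sums. Postn, a matrix protein of periosteum, was at 14 and 176 FPKM, and Thbs4, a tendon matrix protein, at 0.897 and 29.8 FPKM.

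The promoters of 2 of the genes that distinguish the Col10+ sort are shown because they carry the short motifs searched for here. They run from 250 bases before to 50 bases after the RefSeq start site on build GRCm38.p6. The Col10a1 promoter lies on the plus strand at chr10:34389731-34390030, with the TATA box TATAAA, 32 bases before the start, in capitals. The Mmp13 promoter, on the plus strand at chr9:7272264-7272563, belongs to the collagenase of late hypertrophic cartilage, at 0.424 and 78.4 FPKM. Its capitals mark matches to TGNGGT, the pattern used here for Runx, on the reverse strand at -118 (ACCACA) and -47 (ACCCCA). They also mark TGANTCA, the pattern used for AP-1, at -35 and TATAAA at -16. N stands for any base, so the first 2 patterns are loose and a match need not be a site of the factor. A match describes the letters and does not show binding.
Col10a1: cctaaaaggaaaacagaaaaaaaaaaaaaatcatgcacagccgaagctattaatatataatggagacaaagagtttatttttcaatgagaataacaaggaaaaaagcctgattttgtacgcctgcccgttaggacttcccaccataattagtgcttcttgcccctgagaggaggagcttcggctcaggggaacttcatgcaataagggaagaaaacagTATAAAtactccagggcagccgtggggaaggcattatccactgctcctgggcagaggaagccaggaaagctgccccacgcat
Mmp13: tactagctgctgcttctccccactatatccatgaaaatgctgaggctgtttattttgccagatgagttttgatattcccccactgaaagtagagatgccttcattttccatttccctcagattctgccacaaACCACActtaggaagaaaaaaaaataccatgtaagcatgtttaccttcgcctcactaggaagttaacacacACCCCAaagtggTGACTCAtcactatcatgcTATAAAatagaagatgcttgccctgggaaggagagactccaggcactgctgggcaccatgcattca

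Transcription factors known from mouse studies to promote or restrain hypertrophy differed in the 2 directions. Of 11 promoting genes at 5 FPKM or more, 5 were higher and 1 lower. Sp7, a factor of bone formation, was at 0.374 and 19.4 FPKM, Mef2c at 2.94 and 14.1 FPKM, Foxa2 at 4.95 and 15.2 FPKM and Dlx5 at 0.137 and 5.09 FPKM. Runx2 was at 6.06 and 9.93 FPKM, within 2-fold, and Runx3, which also has roles in blood cells, at 1.39 and 5.13 FPKM. Fosl2, the lower gene, was at 72.5 and 33.0 FPKM and within 2-fold when centred. Of 11 restraining genes 0 were higher and 4 were lower, all 4 transcription factors. Sox9, the main factor of cartilage, was at 595 and 103 FPKM, and its partners Sox5 and Sox6 at 24.3 and 5.85 FPKM and at 14.7 and 5.03 FPKM. The Notch target Hes1 was at 50.8 and 11.4 FPKM.

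In the hedgehog and PTHrP axis the ligand and the receptor of the prehypertrophic zone stood out. Indian hedgehog (Ihh) was at 1.52 and 32.9 FPKM and the PTHrP receptor Pth1r at 14.5 and 87.7 FPKM. The hedgehog co-receptor Boc was at 34.8 and 8.13 FPKM and Evc2, a cilium protein of the hedgehog response, at 13.4 and 4.36 FPKM, both lower. The hedgehog target and receptor Ptch1, at 3.46 and 6.69 FPKM, was within 2-fold as deposited and higher when centred. The transducer Smo, at 22.4 and 16.5 FPKM, stayed within 2-fold on both scales. Over the list 26 genes had a row, 14 reached 5 FPKM, 3 were higher and 2 lower, or 5 and 2 when centred, with a median of -0.39.

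FGF receptors, ligands and feedback genes were lower as a group. Of 37 genes with a row, 23 reached 5 FPKM, and 2 were higher and 16 lower, or 14 lower when centred, with a median of -1.75 against -0.30 over all members. All 7 ligands and receptors at 5 FPKM or more were lower. Fgf18, a ligand that restrains chondrocyte growth, was at 15.7 and 1.48 FPKM, and Fgfr1, a receptor of hypertrophic cells in mouse growth plates, at 385 and 72.5 FPKM. Fgfr2 was at 40.1 and 9.77 FPKM. Among the feedback genes, the phosphatase Dusp14 was at 90.5 and 4.73 FPKM, Phlda1 at 539 and 57.8 FPKM, the inhibitors Spry2 and Spry4 at 201 and 22.8 and at 18.7 and 4.11 FPKM, and the factor Etv5 at 64.4 and 16.3 FPKM. The phosphatase Dusp6, a common readout of the pathway, was at 25.8 and 22.2 FPKM. The 2 higher genes were Dusp3, at 0.864 and 7.86 FPKM, and Spry1, at 1.40 and 6.23 FPKM, the latter named after its values were seen.

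Of 13 EGF family genes with a row 4 reached 5 FPKM, and 3 of these were lower. The ligand Hbegf was at 287 and 10.8 FPKM, the ligand Tgfa at 14.5 and 4.82 FPKM and Errfi1, an inhibitor of the EGF receptor, at 1178 and 141 FPKM.

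Of 61 BMP and TGF-beta genes with a row 41 reached 5 FPKM, and 4 were higher and 12 lower, or 6 lower when centred. The median was -0.50. Bmp5 was at 68.2 and 15.3 FPKM and the joint-forming ligand Gdf5 at 15.2 and 3.62 FPKM, while Bmp6, a ligand of hypertrophic cartilage, was at 85.6 and 61.6 FPKM and Bmp2 at 77.4 and 48.4 FPKM. The receptor Acvr1 was at 79.2 and 18.5 FPKM, and Acvrl1, a receptor of endothelial cells, at 0.324 and 6.56 FPKM. Chrdl1, a BMP antagonist, was at 1.59 and 11.4 FPKM.

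Wnt genes were few above the minimum. Of 67 with a row 26 reached 5 FPKM, and 5 were higher and 7 lower, with a median of -0.32. The receptor Fzd9 was at 78.1 and 8.96 FPKM, and the secreted inhibitors Sfrp1 and Wif1 at 29.1 and 4.20 and at 96.5 and 28.9 FPKM. The ligand Wnt10b was at 0.144 and 5.53 FPKM and the inhibitor Sfrp4 at 0.799 and 11.4 FPKM. Frzb, another secreted inhibitor in cartilage, was at 41.6 and 44.7 FPKM, and beta-catenin (Ctnnb1) at 141 and 126 FPKM. The majority turned to 10 higher against 7 lower with a minimum of 1 FPKM.

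IGF binding proteins separated more than the ligands and receptors. Igfbp5 was at 0.481 and 37.0 FPKM, Igfbp3 at 0.785 and 29.1 FPKM and Igfbp4 at 9.37 and 46.6 FPKM, whereas Igfbp7 was lower, at 400 and 117 FPKM. Igf2, the fetal ligand, was at 1718 and 982 FPKM and the receptor Igf1r at 12.2 and 14.7 FPKM. Igf1 was at 0.0945 and 6.5 FPKM, and macrophages also make it. Stc2, which blocks a protease of the binding proteins and is also on the amino acid stress list, was at 36.0 and 7.89 FPKM. Above the minimum 4 of 14 genes were higher and 3 lower.

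Among Notch genes Dlk1, an imprinted membrane ligand, was at 778 and 106 FPKM and Lfng, which modifies the receptors, at 3.11 and 19.7 FPKM. The receptors Notch1, at 8.0 and 7.58 FPKM, and Notch2, at 10.0 and 14.2 FPKM, were within 2-fold. Of the cofactors of the Tead factors, Taz (Wwtr1) was at 74.0 and 26.1 FPKM and Yap1 at 29.3 and 16.5 FPKM. Their target connective tissue growth factor (Ctgf) was at 1046 and 398 FPKM and F3, the tissue factor of clotting, at 97.5 and 8.98 FPKM. In that list 20 of 26 genes reached 5 FPKM, and 1 was higher and 6 lower, or 3 each when centred.

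The broadest difference downwards concerned genes of the ATF4 response, the programme by which cells short of amino acids or under folding stress raise the supply of amino acids and charged tRNAs. Of 53 genes with a row, 52 reached 5 FPKM, 0 were higher and 43 were lower, or 36 when centred. Their median was -1.86, or -1.53 centred, beside -0.30 and 0.01 over all members. The transcription factors came first. Atf4 was at 896 and 223 FPKM, Atf5 at 255 and 39.1 FPKM, Ddit3 (CHOP) at 169 and 35.2 FPKM and the stress cofactor Nupr1 at 450 and 107 FPKM. Cebpb, a partner of Atf4, was at 150 and 125 FPKM and within 2-fold.

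Amino acid supply genes were lower in 18 of 19 cases. Asparagine synthetase (Asns) was at 246 and 42.4 FPKM. In the serine pathway Phgdh was at 152 and 18.6 FPKM and Psat1 at 158 and 20.3 FPKM. Cth, the last enzyme of cysteine synthesis, was at 47.6 and 4.19 FPKM, and Gpt2, the mitochondrial alanine transaminase, at 69.0 and 9.17 FPKM. The amino acid carriers Slc7a5 and Slc7a3 were at 213 and 27.9 FPKM and at 24.9 and 2.48 FPKM. Slc7a11, the cystine carrier, was the exception, at 5.0 and 3.79 FPKM.

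Of 18 cytosolic tRNA synthetases 12 were lower and 0 higher. Nars was at 245 and 54.4 FPKM, Gars at 261 and 68.0 FPKM, Tars at 117 and 30.7 FPKM and Sars at 97.7 and 27.2 FPKM. Those within 2-fold included Kars, at 53 and 37.4 FPKM, and Dars, at 43.8 and 28.4 FPKM. The median was -1.28, or -0.94 centred, so the synthetases stood closer to the other genes than the supply enzymes, whose median was -2.42. Of 7 stress effectors 6 were lower. Chac1, which breaks down glutathione, was at 260 and 13.7 FPKM, Gdf15, a secreted stress signal, at 31.7 and 5.51 FPKM, and Sesn2, a sensor that slows growth, at 51.4 and 12.7 FPKM. The pseudokinase Trib3, a feedback inhibitor of the pathway, was at 34.6 and 9.02 FPKM.

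**Figure D3:**
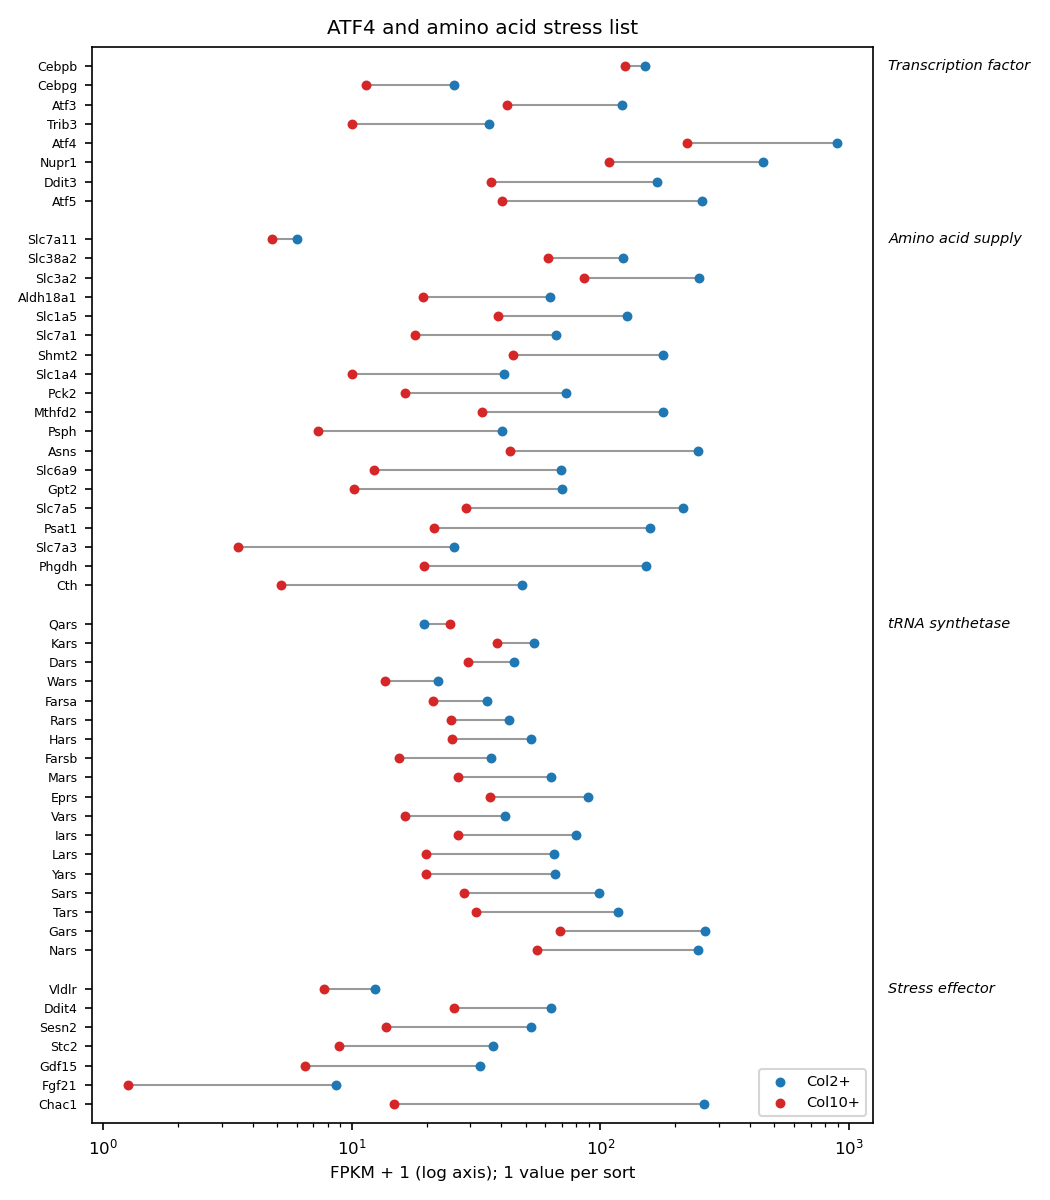
FPKM + 1 on a log axis for the 52 genes of the ATF4 and amino acid stress list with 5 FPKM or more, by role, with blue points for Col2+ and red points for Col10+ (1 value per sort, so no error bars). The red point lies to the left in every row but Qars, at 18.4 and 23.9 FPKM and named after its values were seen, and the gaps are wide among amino acid supply genes and narrow among several tRNA synthetases.

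Promoters of 3 of these genes are printed because they hold TGATGNAA, the core of the amino acid response element to which ATF4 binds with a CEBP partner, a motif added after the values were seen. Capitals mark the match on either strand. The Asns promoter, on the minus strand at chr6:7693160-7693459, has it at -23. The Chac1 promoter, on the plus strand at chr2:119350992-119351291, has it on the reverse strand at -193, and that of Trib3, on the minus strand at chr2:152344011-152344310, on the reverse strand at 15. All are from RefSeq on build GRCm38.p6 and run 5′ to 3′ along the gene.
Asns: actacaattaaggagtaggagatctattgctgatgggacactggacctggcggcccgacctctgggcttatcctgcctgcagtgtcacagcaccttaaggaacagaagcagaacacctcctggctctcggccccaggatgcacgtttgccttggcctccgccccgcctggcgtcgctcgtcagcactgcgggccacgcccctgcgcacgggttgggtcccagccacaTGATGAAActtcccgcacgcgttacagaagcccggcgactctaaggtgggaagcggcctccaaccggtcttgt
Chac1: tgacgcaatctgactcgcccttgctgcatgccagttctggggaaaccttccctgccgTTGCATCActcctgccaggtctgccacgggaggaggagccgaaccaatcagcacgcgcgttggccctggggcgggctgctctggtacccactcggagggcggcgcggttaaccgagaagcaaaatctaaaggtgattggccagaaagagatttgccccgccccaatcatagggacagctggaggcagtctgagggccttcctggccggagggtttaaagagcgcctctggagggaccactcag
Trib3: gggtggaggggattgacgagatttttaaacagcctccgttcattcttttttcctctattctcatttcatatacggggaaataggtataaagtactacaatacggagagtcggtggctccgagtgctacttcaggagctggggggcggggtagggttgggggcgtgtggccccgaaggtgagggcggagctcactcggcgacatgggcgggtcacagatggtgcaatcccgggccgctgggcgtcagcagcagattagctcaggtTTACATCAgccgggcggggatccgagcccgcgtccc
Of the 42 list genes with a promoter entry, 13 (31.0%) held the motif, beside 4.06% of all 27025 RefSeq genes with a promoter, 2.11% of the members and 3.98% of the 880 lower genes. The 13 were Asns, Atf3, Chac1, Fgf21, Gars, Iars, Nupr1, Pck2, Slc1a4, Slc7a11, Tars, Trib3 and Yars. Genes enter such a list partly through known elements of this kind, so the share describes the list.

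Immediate early genes, switched on quickly by signals and by tissue handling, formed the next group. Of 21 AP-1 and immediate early factors, 21 reached 5 FPKM, 0 were higher and 17 lower, or 15 when centred, with a median of -2.36. Fosb was at 329 and 17.3 FPKM, Fos at 607 and 102 FPKM, Fosl1 at 96.6 and 11.6 FPKM and Ier2 at 932 and 160 FPKM. Egr2 was at 73.8 and 8.04 FPKM and Egr3 at 185 and 15.7 FPKM. Jund, at 71.5 and 70.1 FPKM, and Klf6, at 34.7 and 39.8 FPKM, were close in the 2 sorts. Ranked next to them among the largest downward differences were Arc, a gene known from neurons as activity-regulated, at 250 and 15.6 FPKM, and the antiproliferative gene Btg2, at 509 and 52.8 FPKM. Also in these ranks were the chaperone Clu, at 627 and 39.6 FPKM, the cytokine Il11, at 164 and 12.1 FPKM, and Ppp1r1b, a phosphatase inhibitor, at 64.9 and 5.38 FPKM. Both sorts went through the same digestion, and the labels give no time from dissection to lysis.

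Of 24 heat shock chaperones at 5 FPKM or more 3 were higher and 8 lower, or 3 each when centred, with a median of -0.73, or -0.41 centred. Dnajb1 was at 278 and 39.6 FPKM and the mitochondrial Hspa9 at 255 and 67.3 FPKM. The inducible genes Hspa1a and Hspa1b, which share most of their sequence, were higher, at 21.9 and 85.0 FPKM and at 41.6 and 109 FPKM, and so was the small chaperone Cryab, at 0.837 and 12.9 FPKM. Among p53 targets Gadd45a was at 131 and 18.3 FPKM and Cdkn1a at 427 and 100.1 FPKM, while Pmaip1 was at 0.0749 and 6.81 FPKM and Bax at 39.0 and 42.9 FPKM, with 2 of 15 higher and 5 lower. Clock genes were lower in 4 of 9 cases, among them Per1, at 39.3 and 13 FPKM, and Bhlhe40, at 108 and 36.0 FPKM, and Nfil3 was higher, at 6.23 and 15.4 FPKM. Imprinted growth genes were lower in 8 of 16 cases, or 3 when centred, with Mest at 383 and 144 FPKM, H19 at 1588 and 738 FPKM, and Cdkn1c, the inhibitor of division in prehypertrophic cells, within 2-fold at 225 and 288 FPKM.

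Division genes were higher in the Col10+ sort, in which blood progenitor, neutrophil and macrophage markers were higher too. Of 23 mitosis genes with a row, 14 reached 5 FPKM, and 13 were higher and 0 lower, with a median of 2.22. The 14 genes had medians of 0.81 and 7.49 FPKM. Most of them passed the minimum only through the Col10+ sort, so their direction was fixed by it. Ube2c was at 1.86 and 31.2 FPKM, Ccnb1 at 0.606 and 7.31 FPKM and Bub1b at 0.284 and 5.84 FPKM. Among 19 replication genes 7 were higher and 0 lower, or 11 and 0 when centred, with Rrm2 at 1.61 and 11.5 FPKM and Tk1 at 1.08 and 9.73 FPKM, while Pcna was at 93.9 and 64.6 FPKM and Mcm6 at 36.1 and 32.7 FPKM. The blood progenitor markers, 11 genes, summed to 0.336 and 181 FPKM. Sfpi1 (PU.1), listed at 0 and at 83.2 FPKM, made up the largest part of the Col10+ sum. Kit, at 0.141 and 4.95 FPKM, Flt3, at 0.0138 and 0.381 FPKM, and Gfi1, at 0.0627 and 1.35 FPKM, stayed under 5 FPKM. Whether the RNA of this list came from progenitors or from mature blood cells was not tested. Among the regulators of entry into division, 11 genes, 4 were higher and 3 lower. The D cyclin Ccnd2 was lower at 64.8 and 11.8 FPKM and Ccnd3 was within 2-fold at 40.9 and 34.2 FPKM, and the inhibitor Cdkn1b was higher at 5.52 and 19.9 FPKM.

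Sugar use and acid handling differed as well. Of 22 genes of glucose and glutamine supply at 5 FPKM or more 10 were higher and 1 lower, with a median of 0.84. The lactate carrier Slc16a3 was at 1.98 and 57.3 FPKM and the glucose carrier Slc2a3 at 0.356 and 14.4 FPKM, whereas the glucose carrier Slc2a1 was lower, at 294 and 94.5 FPKM. Glutamine synthetase (Glul) was at 8.52 and 55.3 FPKM, and the glycogen phosphorylase Pygl at 4.54 and 31.3 FPKM. Pkm and Ldha stayed within 2-fold as deposited, each with a difference of 0.84, at 189 and 339 FPKM and at 184 and 331 FPKM. Some of these genes are used heavily by neutrophils and osteoclasts, Hk3 among them, at 0.0193 and 6.07 FPKM. In the hypoxia list 3 of 18 were higher, among them Epas1, at 2.68 and 10.8 FPKM, and 2 were lower, or 5 and 0 when centred, where 13.9% and 14.1% of all members were higher and lower as deposited. Hif1a was at 67.0 and 33.9 FPKM. Genes of ion and water transport were 4 higher and 4 lower of 16, or 5 and 2 when centred. Carbonic anhydrase II (Car2) was at 0.219 and 31.6 FPKM and the water channel Aqp1 at 0.785 and 24.2 FPKM, the former also used by red cells and osteoclasts and the latter by red and endothelial cells. Slc12a2, a sodium, potassium and chloride cotransporter that acts in cell volume, was at 29.9 and 7.86 FPKM.

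Lysosomal genes were higher in 18 of 42 cases at 5 FPKM or more and lower in 0, or 23 and 0 when centred, with a median of 0.82. Legumain (Lgmn) was at 15.3 and 265 FPKM, cathepsin B (Ctsb) at 56.5 and 269 FPKM and cathepsin C (Ctsc), a protease of blood cells, at 0.0229 and 58.9 FPKM. Of the proton pump subunits, Tcirg1 and Atp6v0d2, the forms of osteoclasts, were at 3.46 and 48.6 FPKM and at 0.244 and 15.3 FPKM, and Atp6v1b2 and Atp6v1a, used in many cells, at 17.7 and 82.6 FPKM and at 11.3 and 40.7 FPKM. Cathepsin D (Ctsd) was at 263 and 484 FPKM and Lamp1 at 140 and 196 FPKM, both within 2-fold as deposited. When centred, Ctsd was higher and Lamp1 stayed within 2-fold. The osteoclast markers Acp5, at 2.38 and 156 FPKM, and cathepsin K (Ctsk), at 17.3 and 104 FPKM, were higher in the same sort, and Calcr, the calcitonin receptor, was at 0.00417 and 0.022 FPKM.

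Matrix proteases were higher in 6 of 16 cases and lower in 1, or 8 and 1 when centred. Mmp13 was named above, and Mmp9, a gelatinase of osteoclasts and neutrophils, was at 0.359 and 87.0 FPKM. Mmp8, the neutrophil collagenase, was listed at 0 and at 12.8 FPKM. Mmp14, a membrane protease of hypertrophic cartilage and bone, was at 41.7 and 76.1 FPKM, within 2-fold as deposited and higher when centred. Mmp2, which Mmp14 activates, was lower at 484 and 136 FPKM. Of 10 inhibitors 5 were lower and 2 higher, or 2 each when centred. Timp1 was at 1703 and 755 FPKM and Timp2 at 134 and 58.2 FPKM, both within 2-fold when centred, and Serpine2 at 406 and 94.1 FPKM was lower on both scales.

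Adhesion and guidance genes were split. The collagen-binding chondrocyte integrin Itga10 was at 142 and 34.4 FPKM and the fibronectin receptor chain Itga5 at 201 and 57.4 FPKM. The leukocyte integrin chains Itgb2, at 0.0373 and 51.3 FPKM, and Itgam, at 0.042 and 32.6 FPKM, were higher. Semaphorins and plexins were higher in 7 of 16 cases and lower in 3, with Sema4d at 0.615 and 25.4 FPKM, the plexin Plxnc1 at 0.0736 and 5.20 FPKM and Nrp2 at 2.43 and 36.4 FPKM. Among 12 ephrin, slit and netrin genes 6 were lower and 2 higher, or 3 each when centred, with Efna1 at 91.9 and 27.4 FPKM and its receptor Epha2 at 64 and 19.2 FPKM.

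Chemokine genes were among the widest apart. Of 53 chemokine ligands and receptors with a row 23 reached 5 FPKM, and 21 were higher and 1 lower, with a median of 3.55. The 23 genes had medians of 0.07 and 14.7 FPKM. Most therefore passed the minimum only through the Col10+ sort, which fixes their direction. Cxcl12, a stromal ligand that holds blood progenitors in marrow, was at 0.128 and 41.2 FPKM and its receptor Cxcr4 at 0.0705 and 65.6 FPKM. The lower gene was Cxcl14, at 86.5 and 29.8 FPKM, named after its values were seen. Of 11 VEGF and angiopoietin genes 5 were higher and 2 lower. The receptor Kdr of endothelial cells was at 0.044 and 7.35 FPKM, and Vegfa, the vessel attractant of hypertrophic cartilage, was lower at 181 and 49.5 FPKM. In the osteoclast signals Csf1, which supports macrophages and osteoclasts, was at 1.82 and 11.8 FPKM, and Tnfrsf11b, the decoy receptor of RANKL, at 52.5 and 34.6 FPKM. Of 24 interleukin and NF-kB genes 9 were higher and 3 lower, or 11 and 1 when centred, with Il1b listed at 0 and at 25.9 FPKM. Of 11 interferon and antigen display genes 10 were higher, with B2m at 87.3 and 263 FPKM. The 10 of these 11 that also have osteoblast levels had medians of 0.73 and 12.8 FPKM in the 2 sorts. Most of them likewise passed the minimum only through the Col10+ sort.

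The marker lists of other cell types gave the extremes of the comparison. All 13 neutrophil genes and all 14 macrophage genes with a row reached 5 FPKM and were higher, with medians of 6.72 and 6.89. Each lay under 5 FPKM in the Col2+ sort, so each could pass the minimum only by a higher Col10+ value. Genes ranked 11 to 22 among the upward differences were mostly theirs. The neutrophil genes Stfa3, at 0.244 and 267 FPKM, Olfm4, listed at 0 and at 107 FPKM, and Lcn2, at 0.044 and 128 FPKM, stood beside the complement genes C1qa, C1qb and C1qc, each listed at 0 in the Col2+ sort and at 123, 122 and 134 FPKM in the other. Tmsb4x, an actin-binding peptide gene of many cells, was at 7.79 and 986 FPKM and Apoe, a lipid carrier of macrophages and other cells, at 9.94 and 1166 FPKM. Ferritin genes, which store iron, were higher too, with Ftl1 at 578 and 2310 FPKM and Fth1 at 709 and 1535 FPKM.

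Markers of lymphocytes were low. The 15 T and NK cell genes summed to 1.25 and 14.4 FPKM and 0 of them reached 5 FPKM, and Cd3e was listed at 0 and at 0.0514 FPKM. The 13 B lymphoid genes summed to 12.2 and 35.1 FPKM, and 12 of them had the higher value in Col10+. Ebf1, at 11.3 and 7.18 FPKM, made up most of the Col2+ sum. Vessel genes were higher, with Cdh5 and Emcn listed at 0 and at 22.8 and 13.4 FPKM. Among adipocyte genes Fabp4, which endothelial cells also use, was at 7.99 and 124 FPKM. Skeletal muscle genes summed to 36.4 and 99.3 FPKM, mostly through Tnnt3 at 34.1 and 85.5 FPKM. The pericyte and smooth muscle list summed to 239 and 166 FPKM. In that list Cspg4, which made up most of the sum at 222 and 125 FPKM, had the higher value in Col2+. Of its 9 genes 7 had the higher value in Col10+. Epithelial markers summed to 21.9 and 6.89 FPKM, mostly through Krt18, at 8.34 and 1.18 FPKM, and Epcam, at 11.5 and 3.41 FPKM. Of the 8 epithelial genes, 4 had the higher value in Col10+, all 4 under 5 FPKM.

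**Figure D4:**
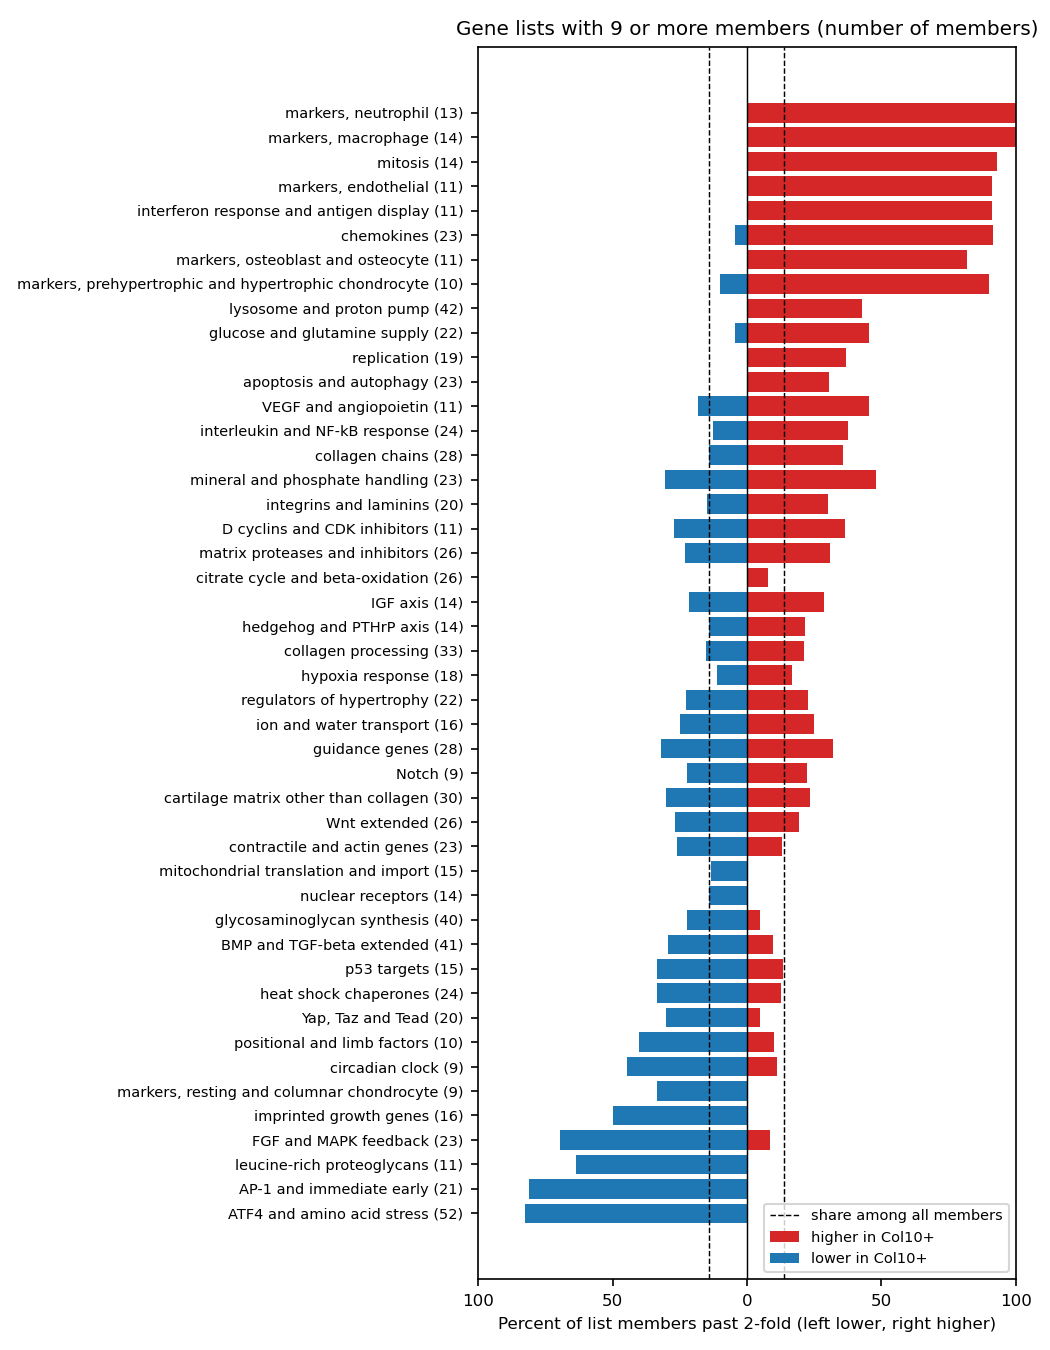
For each gene list with 9 or more members at 5 FPKM, the red bar gives the percent of members higher and the blue bar the percent lower in the Col10+ sort by 2-fold or more (x axis, percent; number of members in brackets). Dashed lines mark the shares among all 8014 genes, 13.9% higher and 14.1% lower. The neutrophil and macrophage lists reach 100% higher, with every gene under 5 FPKM in the Col2+ sort, so that each passed the minimum only through the Col10+ sort. The ATF4 and immediate early lists have the longest blue bars.

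Large housekeeping families showed how far the scale itself moves. Of 76 cytosolic ribosomal protein genes at 5 FPKM or more 0 were higher and 3 lower, named after their values were seen: Rpl22, Rpl7l1 and Rps27, the last at 2929 and 1429 FPKM. Their median was -0.66, and with centred columns it was -0.32 and 0 were lower. Among 34 subunits of respiratory complex I 0 passed the limit (1 when centred) and the median was -0.02, or 0.31 centred, so their sign depends on the scale. Of 40 subunits of complexes II to V 1 was higher, Cox4i2, an isoform known from lung and named after its values were seen, at 6.60 and 16.3 FPKM. Proteasome subunits had a median of -0.37, and the 2 higher genes, Psmb8 and Psmb10, named after their values were seen, encode the subunits of the immunoproteasome, at 0.0511 and 11.9 FPKM and at 1.93 and 8.39 FPKM. The cytoskeletal genes Actb, at 1775 and 784 FPKM, and Vim, at 322 and 775 FPKM, lay on opposite sides.

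Positional genes were mostly under the minimum. Of 33 Hox genes with a row 3 reached 5 FPKM, and Hoxc8 was at 31.8 and 9.76 FPKM and Hoxb2 at 1.20 and 5.13 FPKM, both named after their values were seen. Among the other positional and limb factors 10 of 39 reached 5 FPKM. Irx5 was at 0.19 and 12 FPKM and Foxc1, a factor of axial mesenchyme, at 30.4 and 11.5 FPKM.

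Base composition is given for the promoters by class. Of the members 6446 (80.4%) had a promoter entry of 300 bases. The count of CpG dinucleotides had a median of 23 in genes within 2-fold, 22 in lower genes and 15 in higher genes. Among the 343 higher genes under 1 FPKM in the Col2+ sort the median was 7, with quartiles of 4 and 18, and their GC content had a median of 55.0%, beside 61.7% in the 478 higher genes at 1 FPKM or more in that sort, whose CpG median was 19. Lower genes had a GC median of 62%. The 343 genes were picked by a low Col2+ value and passed the minimum only through the Col10+ sort, and no class of lower genes was picked in the same way. The loose Runx pattern TGNGGT, sought on both strands, was in 47.9% of higher, 41.8% of lower and 39.8% of other promoters, and in 45.6% of all RefSeq promoters. The AP-1 pattern TGANTCA, loose in the same way, was in 6.70%, 5.91% and 4.28% of these, and in 7.93% of all. The TATA box TATAAA was in 10.6%, 7.95% and 5.92%, and in 14.2% of all. The base composition of the classes moves with these shares, and the motifs were not matched for it.

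**Figure D5:**
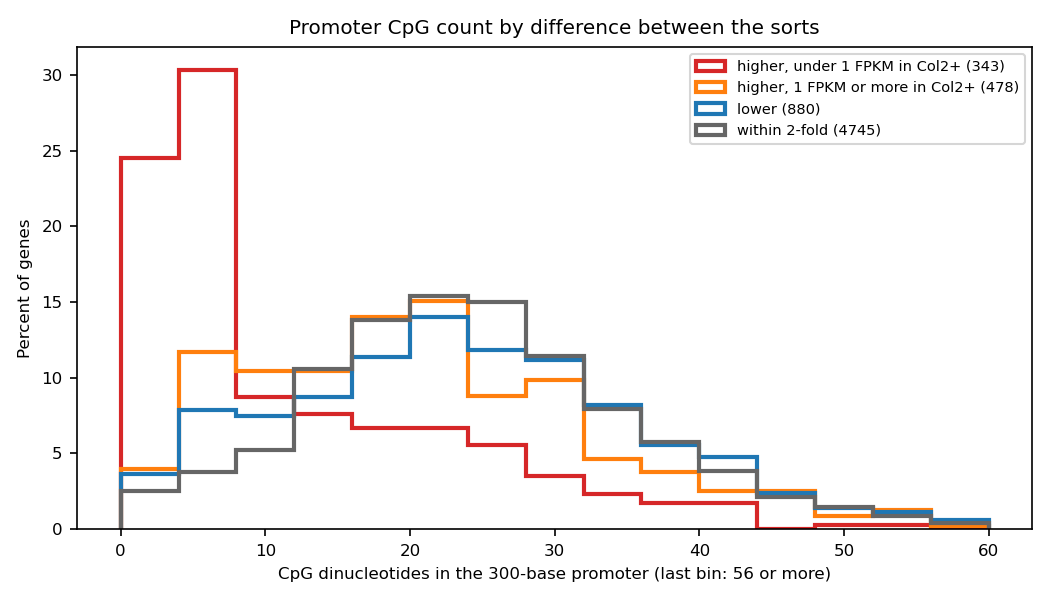
Share of genes (y axis, percent) by number of CpG dinucleotides in the 300-base promoter (x axis, bins of 4), for 4 classes of genes with the number of promoters in brackets. The 343 higher genes under 1 FPKM in the Col2+ sort have their peak in the lowest bins, with a median of 7, while the other classes have broad peaks around their medians of 19 to 23.

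The calvarial osteoblast table, normalised separately from the chondrocyte table, offers levels only. Of the higher genes, 49.2% to 57.2% per osteoblast library were at 5 FPKM or more, beside 70.3% to 72.7% of the lower genes and 83.4% to 85.0% of those within 2-fold. Among the 481 higher genes found in that table that were under 1 FPKM in the Col2+ sort, the share was 22.7% to 34.1%. Of the 40 genes higher by 64-fold or more, 12 were under 1 FPKM in all 4 osteoblast libraries and 15 were at 5 FPKM or more in all 4. Col1a1 was at 7413 to 10274 FPKM in the osteoblasts, Ibsp at 392 to 1102 FPKM, Alpl at 101.4 to 129 FPKM and Sp7 at 11.5 to 50.7 FPKM. S100a9 was at 0 to 1.94 FPKM there. Of 50 ATF4 list genes found in both tables, 48 (96%) had a higher value in the Col2+ sort than in any osteoblast library and 38 (76%) had one in the Col10+ sort. Over all 7892 members found in both tables these shares were 56.1% and 49.1%. The list had a median of 67.1 FPKM in the Col2+ sort, 20.2 FPKM in the Col10+ sort and 8.82 to 13.8 FPKM in the osteoblast libraries. Chac1 was at 0.314 to 1.33 FPKM and Asns at 3.47 to 13.3 FPKM in the osteoblasts, which came from other embryos, another digestion and another library kit.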

How the data were processed

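RNA was sequenced from 3 libraries per rib sort and 4 osteoblast libraries. Per the submitters' processing notes, TopHat2 2.1.0, Cufflinks, Cuffdiff 2.2.1 and build mm9 were used. The authors deposited FPKM, 1 value per sort for the chondrocytes, with no source used here saying how libraries were combined. The deposited chondrocyte table held 1 further column of values, which matched no sample and was not used. Depth is unknown.

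Rows with no name (3444), several genes (557) or a calendar date (25) were left out. The unnamed rows held 8.48% of the Col2+ and 17.0% of the Col10+ sum. Of repeated names the row with the higher mean was kept, and 57 of the listed symbols had no row of their own. Values were compared as log2(FPKM + 1) in Python 3.11.15 with pandas 2.3.3 and numpy 2.4.6, without a test, and the function was tested on simulated data. The alternatives are given in the closing section.

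The members and lists were chosen with earlier results of these data known. Named were Col2a1, Col10a1, the 12 most abundant genes called in each direction, ranks 11 to 22 by difference, and per list and role up to 6 genes past 2-fold and 4 others. Promoters are the first RefSeq entry per gene. A value listed at 0 can be a failed estimate, so no fold is given against it.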

Additional observations from a re-analysis of the deposited data

How the results depend on the processing

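No paired analysis was possible because the chondrocyte columns hold 1 value per sort and carry no replicate number, and no library could be left out for the same reason. The count of higher genes stayed within 1.5 times of 1110 except with a minimum of 1 FPKM or none (1894 each) and of 10 FPKM (705). The count of lower genes, 1132, came to 581 with columns centred on the median ratio, 591 with equal sums without the 100 most abundant rows, 621 with equal upper quartiles and 504 with equal sums without Tomm70a, Rn45s and Lars2, an alternative chosen after seeing the data. These 4 scalings gave 1406, 1386, 1369 and 1483 higher genes. The median difference of -0.30 became 0.0147, -0.0009, -0.0215 and 0.0835 in that order, -0.33 with a pseudocount of 0.1, -0.16 with a minimum of 1 FPKM, -0.39 with 10 FPKM and 0.00 with none. The Col10a1 difference of 5.58 became 5.92, 5.91, 5.88 and 6.00 with the 4 scalings and 5.60 with the smaller pseudocount. The Col2a1 difference of -0.49 became -0.14, -0.16, -0.18 and -0.0675 with the 4 scalings. Summing repeated names and leaving out small RNAs kept each of these 5 results within 1.5 times, or within 0.005 on the log2 scale. No listed gene past 2-fold changed sign under any of the 10 alternatives, but of 9052 gene differences under them 4545 stayed within 0.005 on the log2 scale and 4507 moved further. Of the list counts, 1045 of 1240 for higher or lower genes stayed within 1.5 times. The majority of a list turned under at least 1 of them, here with the counts under the first such alternative, in the cartilage matrix (7 higher, 5 lower), contractile (8 and 1), nuclear receptor (2 and 1), Wnt (10 and 7), Yap and Taz (3 and 2), positional (6 and 4), cyclin (1 and 3), protease (5 and 6) and VEGF (1 and 2) lists. With 1 value per sort and no depth, neither replicate error nor counting error can be given.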
